A study of Drosophila melanogaster with 6 samples.

Results

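Introns that fall inside a single annotated exon were collected from the tables of unannotated splicing events in pupal tissues of Drosophila melanogaster. The members are all events that the event finder fortuna gave the type "intron in exon", where an event is 1 combination of chromosome, start, end and type. They number 5628 of 122483 events and lie in 2441 genes. RNA was taken from wild-type w[1118] flies at 72 h after puparium formation, grown at 27 °C, from dissected indirect flight muscle (IFM), dissected brain and whole leg, with 2 replicate libraries for each tissue and 6 in all. No group carries a transgene or a treatment. Reads from both ends of a fragment were added within a library, so a fragment whose ends both cross an intron counts as 2 reads. By the labels, IFM was prepared at GENEWIZ but brain and leg at LC Sciences, so that tissue and provider cannot be told apart in any comparison with IFM, although the study's methods name LC Sciences alone. The sources used here do not say how many animals stand behind a library, and the p-values reflect only how these libraries vary.

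Markers of neurons, glia, photoreceptors and flight muscle were mostly highest in the tissue of that label, and those of epidermis, blood cells and fat body were divided between IFM and leg. Of the neuronal markers found in the exon tables, 6 of 6 were highest in brain, as were 10 of 10 photoreceptor and 8 of 9 glial markers. Flight muscle markers summed to between 78787.6 and 107665 counts per 1000000 exon reads (CPM) in IFM, 779 to 1239 in brain and 8893 to 9633 in leg, and 5 of 6 were highest in IFM. Each range here runs from the sum of every marker's lower value to the sum of every marker's higher value. The ends are thus bounds and not the sums of single libraries. Epidermis and cuticle markers summed to between 1999.56 and 2318.57 CPM in leg and to at most 604 in IFM, and 4 of 7 were highest in leg and 3 in IFM. Markers listed for tubular muscle, the other kind of fly muscle, summed to 118661 to 192465 CPM in IFM and 83739.9 to 88055.6 in leg. Most of that sum is Mhc, muscle myosin heavy chain, with 151033 CPM in IFM and 56579 in leg, so it does not measure tubular muscle. Of these 5 markers, 2 were highest in IFM, 2 in leg and 1 in brain, and Act79B had 3057 CPM in IFM and 25189 in leg. Markers of blood cells and fat body summed to 1559 to 2438 CPM in IFM and 3701 to 3846 in leg. Sperm and testis markers summed to between 72.6 and 187 CPM in IFM, to at most 2.15 in brain and to at most 13 in leg. Their part in the results below was not tested. Reads over unannotated events ranged from 554656 to 3507067 per library.

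An intron that lies within an exon is retained in the annotated transcript and removed in the other form. Where both of its sides are coding, splicing deletes an internal piece of the protein, and the reading frame is kept if the length is a multiple of 3; such introns are known as exitrons. Inside an untranslated region (UTR), removal leaves the protein as it is and shortens the leader or the trailer of the message. Gaps of this kind can also be read where sequence repeats, or where an intron of a gene on the other strand crosses the exon.

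Most of these introns were rarely read. A single read over all 6 libraries stood behind 2175 of the 5628, and 3673 were seen in 1 library only. At least 10 reads were reached by 980, at least 50 by 266 and at least 150 by 115. Reads were found in all 6 libraries for 246 introns and in all 3 tissues for 601. The IFM libraries held 1564 and 2082 of them, the brain libraries 1955 and 1754 and the leg libraries 1276 and 1300. They made up 2.78% ± 0.249 (SD, n = 2) of all unannotated events in IFM, with 3.35% ± 0.0271 in brain and 3.18% ± 0.12 in leg. The libraries of IFM lay below those of brain and leg, which did not overlap with each other, and the two-sided exact permutation test gave p = 0.33 for each pair, the smallest value that 2 libraries against 2 can reach. With at least 150 reads in a tissue total, 62 were counted in IFM, with 34 in brain and 26 in leg. Of the 90 that passed this threshold in some tissue, 42 did so in IFM alone, 16 in brain alone, 10 in leg alone and 10 in every tissue. IFM has the deepest libraries, and with the threshold scaled to the event reads of each tissue the numbers were 44 in IFM, with 61 in brain and 47 in leg, so that brain came first.

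Introns inside exons were found more often in genes with more RNA. When genes were ordered by mean CPM and cut into 5 groups of equal size, the percent of genes with such an intron was 2.62, 6.21, 11.2, 19.7 and 43.9 from the lowest group to the highest. At least 150 reads over an intron were reached in 66 genes of the highest group and in 0 of the lowest.

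The Ensembl annotation used here, BDGP6.54, lists 287 of the 5628 intervals as introns, in part of a neighbouring or opposite gene. It is called the newer annotation below, since its number is higher than that of the genome release in the study's methods. Which release fortuna used is not known here, so it is not shown that these 287 were annotated later. The 287 intervals held 80775 of the 256734 reads, and their share of the reads was 41.0% and 34.0% in the IFM libraries, but 14.9% and 13.1% in brain and 19.3% and 21.0% in leg. Without them, introns inside exons took 2.27% ± 0.123 (SD, n = 2) of all unannotated reads in IFM, with 2.09% ± 0.144 in brain and 2.47% ± 0.113 in leg, against 3.65% ± 0.489, 2.43% ± 0.131 and 3.10% ± 0.187 with them. Shares of reads by place are therefore given for the other 5341, while counts of introns and the totals of gene lists below hold all 5628.

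Shares of introns and of reads by place in the gene differed between tissues in these libraries, and the differences were not tested. By annotated transcripts, 1971 introns (35.0%) lay in a 5′ UTR, 1360 (24.2%) in coding sequence, 808 (14.4%) in a 3′ UTR, 604 across a start or stop codon and 510 in noncoding RNA. The remaining 329 had a different place in different transcripts, and 46 could not be placed in 1 exon. In the 5′ UTR lay 33.3% of the introns seen in an IFM library, 38% of those in a leg library and 42.3% of those in a brain library, on average over 2 libraries. Of the reads, the 5′ UTR held 45.2% ± 0.562 (SD, n = 2) in brain, 28.1% ± 1.15 in IFM and 27.9% ± 0.717 in leg. The 3′ UTR took 38.3% ± 0.229 in leg, where 1 intron of SERCA alone held 26.7% and 27.2% of the reads. Noncoding RNA took 44.2% ± 3.72 in IFM, with 9.92% ± 1.19 in brain and 8.83% ± 0.393 in leg. A pair of introns makes up most of that share in IFM, 1 opposite the flightin gene with 26.0% and 27.2% of the reads and 1 in a ribosomal RNA precursor with 6.90% and 11.6%.

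**Figure D1:**
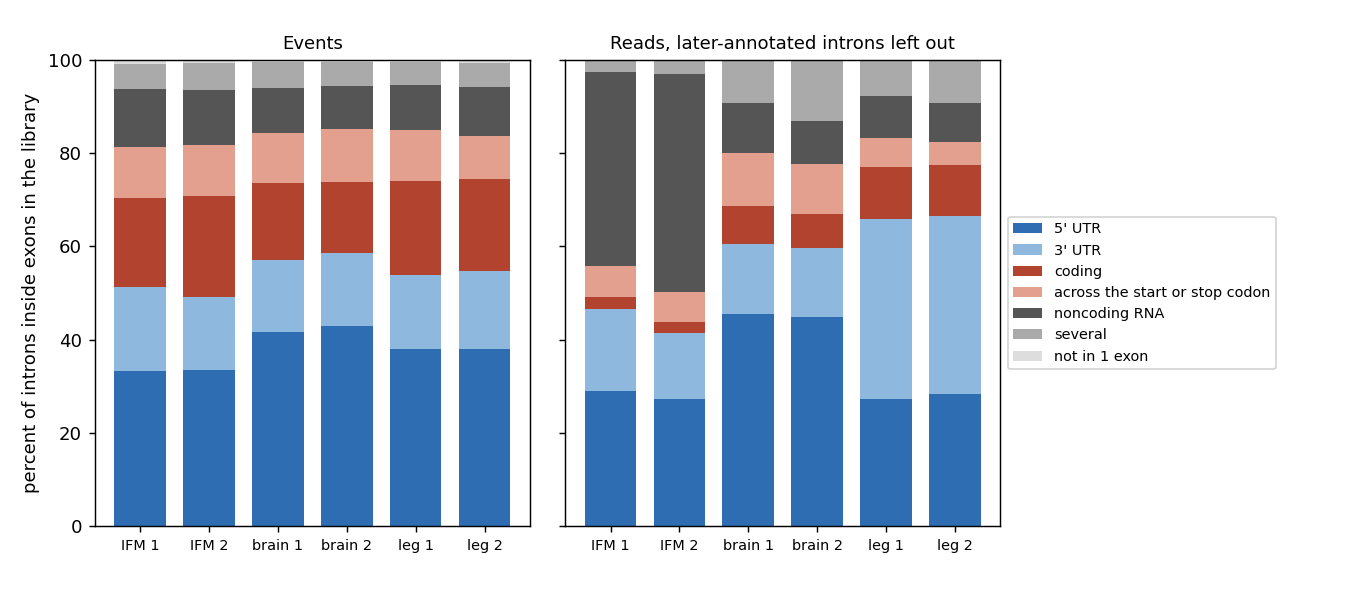
Place of the introns inside exons in each of the 6 libraries, as percent of the introns (left) and as percent of their reads without the 287 intervals that BDGP6.54 lists as introns (right). Bars are single libraries and add to 100; noncoding RNA is the widest band of reads in both IFM libraries, and the 3′ UTR in both leg libraries is wider than in any other.

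Read counts per intron were compared between tissues with edgeR's quasi-likelihood test on all 16595 unannotated events with at least 50 reads, of which 266 are introns inside exons, and "adjusted p" below is its p-value after Benjamini-Hochberg adjustment. Between IFM and leg, 117 of the 266 passed an adjusted p of 0.05 (60 higher in IFM, 57 lower), which is 44.0% against a background of 42.7% of all events tested (24.7% higher, 18% lower). Between IFM and brain, 170 passed (80 higher in IFM, 90 lower), 63.9% against 63.5% (33.3% higher, 30.2% lower). Between brain and leg, 93 passed (49 higher in brain, 44 lower), 35.0% against 34.8% (18.4% higher, 16.4% lower). Among events with at least 50 reads, introns inside exons were thus called about as often as all unannotated events. With no minimum of reads they were called less often, at 2.47%, 4.26% and 2.19% against 5.70%, 10.7% and 4.90% of all events, a difference that was not tested. With library totals as the only scaling, the splits were 44 higher and 78 lower between IFM and leg, 58 and 117 between IFM and brain, and 60 and 37 between brain and leg. Under that scaling the median log2 fold change over all events was -0.39, -0.87 and 0.29, where it was 0.32, 0.24 and 0.00 under the scaling used here. Without IFM replicate 2 the first count was 74, and without leg replicate 1 it was 77. Without brain replicate 1 or 2 the last count was 53 or 59.

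Reads over an intron can follow the expression of its gene, so gene expression was entered as an offset for the 195 introns that lie in 1 gene of the exon tables. The offset left 60 calls between IFM and leg (26 higher in IFM, 34 lower), 60 between IFM and brain (20 and 40) and 14 between brain and leg (6 and 8). Without the offset the same 195 introns gave 84, 129 and 83 calls. Over all events with an offset, 23.7%, 24.7% and 2.48% were called. In bulk tissue, fewer cells of a type and less RNA per cell cannot be told apart in any of these levels. Above both other tissues at adjusted p below 0.05 were 52 of the 266 introns in IFM (19.5%, against 20.8% of all 16595 events), 42 in brain (15.8% against 15.8%) and 26 in leg (9.77% against 6.14%), of which 46, 40 and 21 are not introns of the newer annotation.

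**Figure D2:**
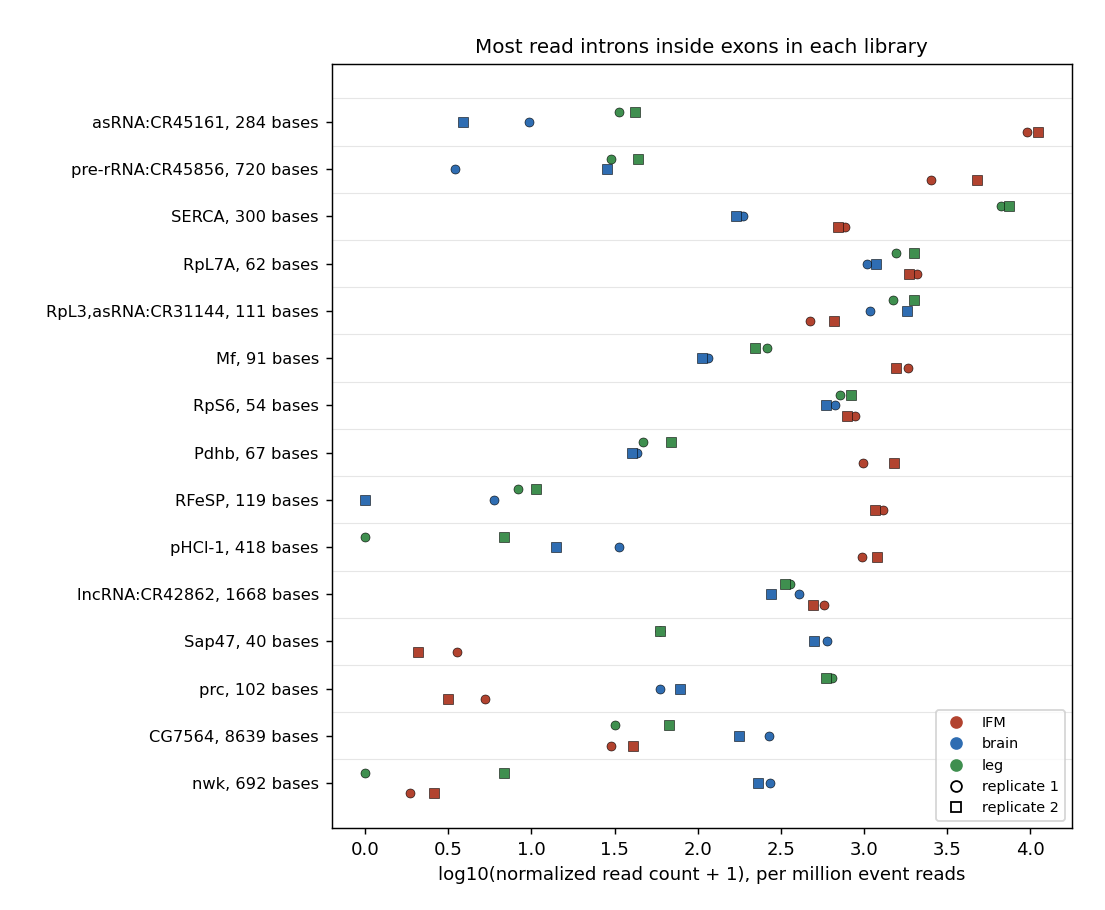
Normalized read counts, on a log10 scale after adding 1, of the most read introns inside exons of each tissue that BDGP6.54 does not annotate. Circles are replicate 1 and squares replicate 2 of each tissue; the IFM points of the intron opposite fln and the leg points of the SERCA intron lie to the right of all others on their lines.

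Sarcomere genes held many introns inside exons, most of them rarely read. Of 36 listed genes, 28 had at least 1, with 342 introns and 11777 reads in all. Of the 15 tested, 12 were higher in IFM than in brain and 0 lower, with a median log2 fold change of 4.90 against -0.08 over all 266. Between IFM and leg, 6 were higher and 5 lower in IFM (median 2.19 against 0.03). Between brain and leg, 0 were higher and 9 lower in brain (median -4.46 against 0.32). Over all 16595 events tested, 33.3% were higher and 30.2% lower in IFM than in brain. The shares were 24.7% and 18% for IFM against leg and 18.4% and 16.4% for brain against leg. They are the background for the gene lists below as well. Only 7 genes stand behind these 15 introns, and with gene expression as an offset 4 of 13 were higher and 1 lower in IFM than in brain, 5 were higher and 5 lower in IFM than in leg, and 1 was higher and 2 lower in brain than in leg.

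Mf encodes myofilin, a protein of the thick filament, and lies on the minus strand of chromosome 3R from 15170625 to 15181510. Its 35 introns inside exons had 8242 reads. The most read was a 91-base intron in the 3′ UTR (15175863 to 15175955), with 2126 and 2908 reads in the IFM libraries, against 91 and 73 for brain and 142 and 114 for leg. The IFM libraries lay above all others, also as normalized counts, with a log2 fold change of 2.81 ± 0.37 (SE) against leg (adjusted p = 0.000435) and 3.94 ± 0.39 against brain (adjusted p = 5.06e-05). The gene itself had 3245 ± 200 CPM (SD, n = 2) in IFM, with 515 ± 59.1 in brain and 6824 ± 408 in leg, and with this as an offset the difference from leg was 3.90 (adjusted p = 0.000237). A second 3′ UTR intron of Mf, 171 bases long (15176427 to 15176599), had 499 and 830 reads in IFM, against 1 and 0 for brain and 11 and 19 for leg. Another, 1144 bases across a start or stop codon (15177135 to 15178280), had 89 and 78 reads in IFM, against 5 and 3 for brain and 217 and 182 for leg. This one was lower in IFM than in leg (log2 fold change -2.67 ± 0.47, adjusted p = 0.00192), so that introns of 1 gene went in opposite directions between IFM and leg. It is the most read of 10 introns that end at the same base and have 301 reads in IFM, with 10 in brain and 483 in leg. Gyc88E lies on the other strand over these introns, and reads of overlapping genes cannot be told apart here.

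Introns of tmod were higher in leg. The gene encodes tropomodulin, which caps the pointed ends of thin filaments, and lies on chromosome 3R from 30532607 to 30578905. A 204-base intron of its 3′ UTR (30573249 to 30573454) had 154 and 100 reads in leg, against 1 and 5 for IFM and 0 and 0 for brain. It was lower in IFM than in leg (log2 fold change -6.86 ± 0.70, adjusted p = 0.000189) and at least 118-fold higher in leg than in brain, with a floor of 3 reads over both brain libraries. The gene had 838 ± 39.0 CPM (SD, n = 2) in leg and 164 ± 56.9 in IFM, and with that offset the difference remained, at -4.53 (adjusted p = 0.00232). A neighbouring interval of 162 bases (30573072 to 30573235), which the newer annotation lists as an intron of tmod, had 44 and 65 reads in IFM, against 5 and 8 for brain and 424 and 314 for leg.

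Among genes of muscle calcium handling, 10 of 14 had an intron inside an exon, with 58 introns and 10477 reads, 9959 of them over 1 intron of SERCA. The gene encodes the pump that returns calcium to the sarcoplasmic reticulum, and lies on the minus strand of chromosome 2R from 23925077 to 23935884. Its 300-base 3′ UTR intron (23927181 to 23927482) had 897 and 1297 reads in IFM, against 150 and 117 for brain and 3642 and 3856 for leg. The log2 fold change of IFM against leg was -3.27 ± 0.33 (adjusted p = 0.000131), that of brain against leg -5.31 ± 0.37 (adjusted p = 0.000297) and that of IFM against brain 2.04 ± 0.32 (adjusted p = 0.00052). SERCA expression was ordered in the same way, with 28394 ± 2083 CPM (SD, n = 2) in leg, 6299 ± 1507 in IFM and 1179 ± 217 in brain. With it as an offset, IFM was lower than leg by a log2 fold change of -1.08 (adjusted p = 0.0326), IFM against brain turned to -0.36 (adjusted p = 0.404) and brain against leg was -0.72 (adjusted p = 0.272). A 428-base intron in the 5′ UTR of the same gene (23932814 to 23933243) had 2 and 14 reads in IFM, against 49 and 49 for brain and 27 and 34 for leg, which is lower in IFM than in brain (-3.71 ± 0.68, adjusted p = 0.00122). With the offset that difference was -6.12 (adjusted p = 0.000568), and brain was higher than leg by 4.77 (adjusted p = 0.01). The 2 ends of the SERCA message thus had introns with different tissue orders. Of the 4 introns tested in the list, 0 were higher and 3 lower in IFM than in leg, against 24.7% and 18% of all events tested. With the offset, 0 of the 4 were higher and 1 lower.

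Introns in genes of energy metabolism were read mostly in IFM. Of 47 genes, 36 had an intron inside an exon (102 introns, 7110 reads), and of 5 tested, 4 were higher in IFM than in leg and than in brain, and 0 were lower (medians 4.34 and 4.53). With gene expression as an offset, 2 of 4 were higher in IFM than in leg and 0 lower, and 2 were higher and 1 lower in IFM than in brain. Over all events tested without the offset, 24.7% were higher in IFM than in leg and 33.3% higher in IFM than in brain. RFeSP, the Rieske iron-sulfur protein of respiratory complex III, had a 119-base intron in its 3′ UTR (chromosome 2L, 1612576 to 1612696). It had 1507 and 2187 reads in IFM, against 4 and 0 for brain and 4 and 5 for leg, with a log2 fold change of 7.16 ± 0.70 against leg (adjusted p = 0.000116) and of 4.75 with the offset (adjusted p = 0.00127). Only 6 of its 3707 reads came from the first read end. Gpdh1, a cytosolic glycerol-3-phosphate dehydrogenase, had a 534-base intron across a start or stop codon (chromosome 2L, 5947872 to 5948407) with 701 and 1148 reads in IFM, against 17 and 12 for brain and 19 and 13 for leg. Both IFM libraries were above all others, by a log2 fold change of 4.34 ± 0.46 against leg (adjusted p = 0.000149; 1.65 with the offset, adjusted p = 0.023). For porin, the channel of the outer mitochondrial membrane, a 413-base 5′ UTR intron (chromosome 2L, 10850340 to 10850754) had 337 and 596 reads in IFM, against 20 and 21 for brain and 23 and 18 for leg. It was higher in IFM by 2.98 ± 0.45 against leg (adjusted p = 0.000896), and with the offset by 1.26, which did not pass (adjusted p = 0.0602). Of the 1015 reads of this porin intron, 35 came from the first read end.

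Other introns with most reads in IFM lay in genes outside the list. Pdhb, a subunit of pyruvate dehydrogenase, had a 67-base 5′ UTR intron (chromosome 3R, 29113140 to 29113208) with 1140 and 2835 reads in IFM, against 34 and 27 for brain and 25 and 35 for leg. Its log2 fold change of IFM against leg was 4.46 ± 0.46 (adjusted p = 0.00014), and 1.71 with the offset (adjusted p = 0.0189). ND-15, a subunit of respiratory complex I, had a 156-base 5′ UTR intron (chromosome 2L, 155178 to 155335) with 301 and 371 reads in IFM and none in brain or leg. Against the floor of 3 reads over the libraries of a tissue it was at least 114-fold higher in IFM than in brain and at least 81.0-fold higher than in leg. Hmgs, a synthase of the mevalonate pathway, had a 122-base 5′ UTR intron (chromosome 2R, 16336637 to 16336760) with 88 and 137 reads in IFM, against 0 and 4 for brain and 0 and 0 for leg. pHCl-1, a chloride channel gated by pH, had a 418-base intron across a start or stop codon (chromosome 3L, 15852276 to 15852695). It had 1125 and 2219 reads in IFM, against 26 and 9 for brain and 0 and 3 for leg, and was higher in IFM than in brain by a log2 fold change of 5.54 ± 0.68 (adjusted p = 0.000147; 2.74 with the offset, adjusted p = 0.0118). Sam-S, which makes S-adenosylmethionine, had a 132-base 5′ UTR intron (chromosome 2L, 107956 to 108089) with 1232 and 2034 reads in IFM, against 143 and 118 for brain and 93 and 104 for leg. That intron was higher in IFM than in leg by 2.53 ± 0.37 (adjusted p = 0.000771), and with the offset by 0.99, which did not pass (adjusted p = 0.0701). For each intron given here with its reads per library, both IFM libraries lay above every brain and leg library.

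Some introns in genes of cytoplasmic ribosomal proteins were read in every tissue. Of 90 genes, 38 had 1 or more, with 99 introns and 22451 reads, which is 8.74% of all reads over introns inside exons. Of the 99, 50 were read in IFM, 51 in brain and 34 in leg. RpL7A had a 62-base intron in its 5′ UTR (chromosome X, 6533167 to 6533230) with 2408 and 3503 reads in IFM, against 829 and 815 for brain and 852 and 1026 for leg. IFM and leg overlapped as normalized counts, with a log2 fold change of 0.15 ± 0.32 (adjusted p = 0.727), and IFM was above brain by 0.83 ± 0.33 (adjusted p = 0.0461), a difference that turned to -0.30 with library totals as the scaling. Of its 9433 reads, 7619 came from the first read end, and from the second end alone IFM lay below leg by -3.94. RpS6 had a 54-base 5′ UTR intron (chromosome X, 7901007 to 7901062) with 1020 and 1478 reads in IFM, against 533 and 406 for brain and 393 and 430 for leg. It passed in no comparison with edgeR, while DESeq2 gave adjusted p = 0.0368 between IFM and brain. RpL3 had a 111-base intron (chromosome 3R, 11222729 to 11222841), where the antisense RNA asRNA:CR31144 overlaps, with 550 and 1223 reads in IFM, against 865 and 1245 for brain and 815 and 1021 for leg. It was lower in IFM than in leg by -1.62 ± 0.39 (adjusted p = 0.00894) and than in brain by -1.35 ± 0.39 (adjusted p = 0.012). RpS7 had a 222-base 5′ UTR intron (chromosome 3R, 30208694 to 30208917) with 290 and 504 reads in IFM, against 10 and 3 for brain and 5 and 12 for leg, 4.0 ± 0.62 higher than in leg (adjusted p = 0.00105). Of these 824 reads, 801 came from the first read end. Of the 11 ribosomal introns tested, 6 were higher and 1 lower in IFM than in leg, 7 and 1 in IFM than in brain, and 0 passed between brain and leg. Over all events tested, 24.7% were higher and 18% lower in IFM than in leg, and 33.3% and 30.2% in IFM than in brain. With gene expression as an offset only 4 of the 11 could be tested. Of these, 2 were higher and 0 lower in IFM than in leg, and likewise than in brain.

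Introns in synaptic genes were read mostly in brain. In the list of synaptic release, 24 of 42 genes had an intron inside an exon (134 introns, 2682 reads). Of 8 tested, from 2 genes, 0 were higher and 8 lower in IFM than in brain (median -6.41), and 7 were higher in brain than in leg (median 5.97). Over all events tested, 30.2% were lower in IFM than in brain and 18.4% higher in brain than in leg. With gene expression as an offset, 3 of the 8 stayed lower in IFM than in brain and 0 passed between brain and leg. Sap47, a synapse-associated protein, had a 40-base 5′ UTR intron (chromosome 3R, 15935912 to 15935953) with 480 and 343 reads in brain, against 32 and 30 in leg and 3 and 2 in IFM. IFM was lower than brain by a log2 fold change of -8.23 ± 0.60 (adjusted p = 2.04e-05), and by -4.19 with the offset (adjusted p = 0.00115). Brain was higher than leg by 3.23 ± 0.45 (adjusted p = 0.000986), but relative to the gene it was -0.46 (adjusted p = 0.643), with 1843 ± 371 CPM (SD, n = 2) for Sap47 in brain and 142 ± 43.1 in leg. Another 7 introns of Sap47 share the start 15935584 and had 593 reads in brain, 19 in IFM and 9 in leg. cpx, which encodes complexin, a clamp and promoter of vesicle fusion, held 39 introns inside exons, with 510 of their 536 reads in brain. The 243-base 3′ UTR intron of cpx (chromosome 3R, 4299546 to 4299790) had 98 and 108 reads in brain, against 4 and 3 in leg and 1 and 2 in IFM.

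Other brain introns lay in genes outside that list. The 692-base intron of nwk, an adaptor of synaptic membranes, lies across a start or stop codon (chromosome 3L, 9142605 to 9143298) and had 217 and 159 reads in brain, against 1 and 3 for IFM and 0 and 3 for leg. In inaE, a diacylglycerol lipase needed for the photoreceptor response, a 786-base intron (chromosome X, 13808494 to 13809281) had 141 and 82 reads in brain, against 0 and 2 for IFM and 0 and 0 for leg. TTLL4A, a relative of the tubulin tyrosine ligases, had an 1822-base intron (chromosome 2L, 10994021 to 10995844) with 127 and 78 reads in brain, against 1 and 2 for IFM and 1 and 0 for leg. All 3 passed between IFM and brain (adjusted p = 8.09e-05, 0.000149 and 8.42e-05) and between brain and leg (adjusted p = 0.000741, 0.000891 and 0.000694). With the offset, inaE and TTLL4A stayed higher in brain than in IFM (adjusted p = 0.00662 and 0.00222) and than in leg (0.0299 and 0.0346), and nwk was not tested there. In the longest of the most read introns, 8639 bases in the 3′ UTR of CG7564 (chromosome 3L, 17515884 to 17524524), brain had 213 and 122 reads, IFM 34 and 74 and leg 17 and 34. It was higher in brain than in leg by a log2 fold change of 2.19 ± 0.53 (adjusted p = 0.00995), and with the offset by 1.34, which did not pass (adjusted p = 0.223).

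Channel and receptor genes had few introns with enough reads. Of 39, 23 had 94 introns with 618 reads, and 2 were tested. GluClalpha, a glutamate-gated chloride channel, had a 213-base intron (chromosome 3R, 19774704 to 19774918) with 31 and 27 reads in brain, against 4 and 2 for IFM and 1 and 0 for leg. It was lower in IFM than in brain (-4.13 ± 0.90, adjusted p = 0.003), and 0.27 with the offset (adjusted p = 0.843). Sh, a potassium channel subunit, had a 336-base 3′ UTR intron (chromosome X, 17950092 to 17950429) with 44 and 63 reads in IFM, against 37 and 45 for brain and 12 and 4 for leg, higher in brain than in leg by 1.89 ± 0.64 (adjusted p = 0.0444). With the offset the difference was 0.35 (adjusted p = 0.849), and all 205 reads came from the first read end.

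Genes of cuticle, epidermis and extracellular matrix held 40 introns with 639 reads in 14 of 41 genes. Of 2 tested, 1 was lower in IFM than in leg and both were lower in brain than in leg. Cht6, a chitinase, had a 2046-base coding intron (chromosome X, 10040817 to 10042864) with 107 and 86 reads in leg, against 25 and 77 for IFM and 28 and 8 for brain, and IFM was lower than leg by -2.51 ± 0.59 (adjusted p = 0.00794; -1.66 with the offset, adjusted p = 0.0608). trol, the perlecan of basement membranes, had a 1110-base 3′ UTR intron (chromosome X, 2478506 to 2479617) with 15 and 31 reads in IFM, against 8 and 3 for brain and 31 and 10 for leg. In EbpIII, a protein first described in the ejaculatory bulb, a 132-base 5′ UTR intron (chromosome 2R, 24026871 to 24027004) had 60 and 36 reads in leg, against 34 and 27 for brain and 1 and 1 for IFM.

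RNA-binding proteins and translation factors had few such reads. Of 44 RNA-binding genes, 23 had 70 introns with 1127 reads, and of 2 tested, 1 was lower in IFM than in leg, 1 higher in IFM than in brain and 1 lower in brain than in leg. B52, an SR protein of splicing, had a 145-base 5′ UTR intron (chromosome 3R, 13661442 to 13661588) with 153 and 241 reads in IFM, against 106 and 94 for brain and 47 and 34 for leg. It passed in no comparison with edgeR, while DESeq2 gave adjusted p = 0.0263 for IFM against leg and 0.0491 for brain against leg. ps, a KH-domain splicing regulator, had a 51-base 3′ UTR intron (chromosome 3R, 9447488 to 9447540) with 32 and 15 reads in leg, against 7 and 6 for IFM and 0 and 0 for brain. Of 27 translation factors and chaperones, 8 had 20 introns with 53 reads, and none had enough to be tested. eIF4E1, the cap-binding protein, is not in that list. Its 54-base 5′ UTR intron (chromosome 3L, 9402225 to 9402280) had 147 and 279 reads in IFM, against 8 and 11 for brain and 4 and 6 for leg, 3.85 ± 0.59 higher in IFM than in leg (adjusted p = 0.000993) and 3.17 with the offset (adjusted p = 0.00543). Of these 455 reads, 20 came from the first read end.

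The most read introns of noncoding RNA need the genes around them. The 284-base interval of asRNA:CR45161 (chromosome 3L, 19990086 to 19990371) had 11050 and 20815 reads in IFM, against 7 and 2 for brain and 18 and 21 for leg. It lies opposite fln, the gene of flightin, a thick-filament protein of flight muscle, and both of its ends are annotated splice sites of fln, not of the antisense RNA. The same interval was also listed as an exon skip. Exon CPM was 19294 ± 1583 (SD, n = 2) for fln and 18203 ± 1243 for asRNA:CR45161 in IFM. The study's methods call the libraries stranded, but the strand used in counting is not given in the sources used here. Exon reads of both genes therefore cannot be told apart. In all, 81 introns inside exons had both ends at splice sites of the opposite strand, 5 of them with at least 150 reads, and 632 overlapped a gene on that strand. The 720-base interval of pre-rRNA:CR45856 (chromosome X, 23280277 to 23280998) had 2927 and 8914 reads in IFM, against 2 and 19 for brain and 16 and 22 for leg. All but 41 of its 11900 reads came from the second read end, and ribosomal RNA carries no poly(A) tail, by which the RNA was selected. lncRNA:CR42862, with 45 introns and 5937 reads, had a 1668-base intron (chromosome 3L, 225849 to 227518) with 667 and 926 reads in IFM, against 326 and 190 for brain and 197 and 173 for leg, and passed in no comparison with edgeR (adjusted p between 0.155 and 0.997), while DESeq2 gave adjusted p = 0.0300 for IFM against leg and 0.0219 for IFM against brain.

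The intervals of the newer annotation include the most read of all. A 115-base interval in the 3′ UTR of CG32576, which is an intron of UQCR-14, a subunit of respiratory complex III, had 10282 and 26412 reads in IFM and none in brain or leg (chromosome X, 16286449 to 16286565). A 170-base interval at ND-MWFE and TppII (chromosome 2R, 13158846 to 13159017) had 5698 and 9301 reads in IFM, all of them from the first read end, and none elsewhere. Other intervals were read in 1 replicate only: a 63-base one in CG32576 had 10176 and 0 reads in IFM, and an 842-base one in Rnf11, opposite PMCA, had 2248 and 0 in IFM, against 1099 and 0 for brain and 0 and 0 for leg. yellow-c, next to CIAPIN1, had a 59-base interval (chromosome 2L, 15036991 to 15037051) with 1033 and 1444 reads in leg, against 84 and 48 for brain and 20 and 0 for IFM.

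Introns within coding sequence had a length that keeps the reading frame more often than those in untranslated regions had a length of that kind. Of 1360, 800 had a length that is a multiple of 3, 58.8% (95% Wilson interval 56.2 to 61.4, counting error only). Such an interval treats each intron as independent, which introns of 1 gene are not. In the 5′ UTR the share was 31.6% (29.6 to 33.7), in the 3′ UTR 35.8% (32.5 to 39.1) and in noncoding RNA 34.5% (30.5 to 38.7). The share in coding sequence was 57.7% among those read in IFM, with 57.3% in brain and 60.0% in leg. With 1 intron per gene it was 55.8%, and without genes that hold 10 or more coding introns it was 56.2%. Among introns of 50 to 149 reads, 3 of 14 had such a length, and among those of at least 150 reads 8 of 8 did. By length, the share was 78.6% under 30 bases, 49.5% from 50 to 74 bases and 61.3% from 300 bases. The coding lengths seen most often were 66 bases (32 introns), 57 (31), 54 (27), 60 (25) and 75 (23), all multiples of 3. Coding introns were short, with a median of 84 bases against 173 in the 5′ UTR, 208 in the 3′ UTR and 272.5 in noncoding RNA.

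**Figure D3:**
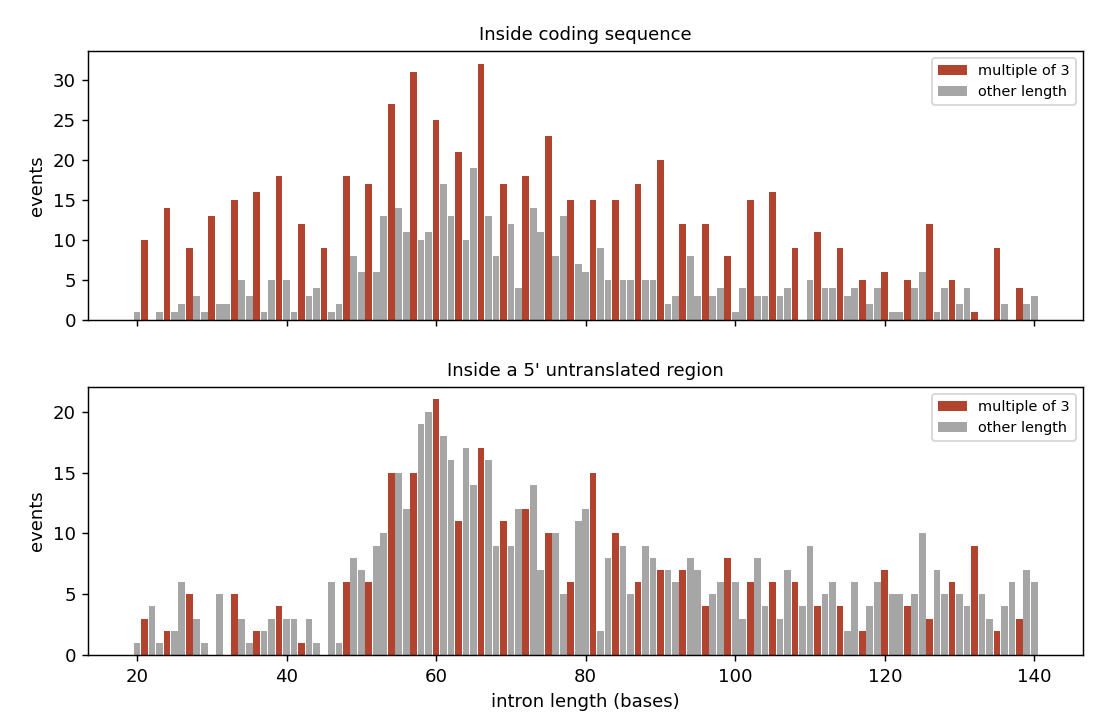
Number of introns inside exons at each length in bases, in coding sequence (above) and in 5′ UTRs (below), with lengths that are multiples of 3 in red and all others in grey. Red bars stand above their grey neighbours in coding sequence, where 58.8% of introns are multiples of 3, and not in 5′ UTRs, where 31.6% are.

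Of the coding introns tested, 22 in number, 2 were higher and 9 lower in IFM than in leg, 8 and 8 in IFM than in brain, and 3 and 11 in brain than in leg. Over all 16595 events tested, 24.7% were higher and 18% lower in IFM than in leg. Between IFM and brain the shares were 33.3% and 30.2%, and between brain and leg 18.4% and 16.4%. The 22 introns lie in 18 genes, and introns of 1 gene are not independent. prc, which encodes pericardin, a collagen-like matrix protein, had 18 coding introns, all multiples of 3. Its 102-base intron (chromosome 3L, 11964223 to 11964326) had 353 and 305 reads in leg, against 47 and 53 for brain and 5 and 4 for IFM, and IFM was lower than leg by a log2 fold change of -7.59 ± 0.57 (adjusted p = 4.71e-05). The 969-base intron with the same end (11963356 to 11964326) had 185 and 235 reads in leg, against 41 and 23 for brain and 2 and 5 for IFM. Expression of prc was 1204 ± 29.4 CPM (SD, n = 2) in leg, 101 ± 6.45 in brain and 25.1 ± 7.39 in IFM, and with it as an offset brain against leg was 0.38 (adjusted p = 0.715) and 0.34 (adjusted p = 0.768) for these introns. CG42586 had 11 coding introns, all multiples of 3, of which the 42-base one (chromosome 2L, 14741579 to 14741622) had 196 and 237 reads in IFM, against 1 and 27 for brain and 86 and 137 for leg. Ptp99A, a receptor tyrosine phosphatase of growing axons, had a 708-base coding intron (chromosome 3R, 29483743 to 29484452) with 195 and 101 reads in brain, against 7 and 2 for IFM and 3 and 12 for leg. It was higher in brain than in IFM (-5.87 ± 0.87 for IFM against brain, adjusted p = 0.000376), and with the offset by -4.04 (adjusted p = 0.00777).

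Coding introns were crowded in a few genes, which were looked at after their counts were seen. up, the gene of troponin T, held 65 introns inside exons, of which 53 were coding. Of these, 49 lay within 211 bases of chromosome X (13593800 to 13594010), with 38 multiples of 3, 129 reads in all and 27 introns of a single read. Mhc, muscle myosin heavy chain, had 42 coding introns (29 multiples of 3) with 57 reads, and Act88F, the actin of flight muscle, had 31 (18 multiples of 3) with 50 reads, all of them in IFM. Ubi-p63E and Ubi-p5E encode chains of repeated ubiquitin units. All 12 coding introns of Ubi-p63E and 8 of 9 of Ubi-p5E were whole multiples of 228 bases, the shortest length seen in each, from 228 to 2052 bases in Ubi-p63E. Among all 1360 coding introns 21 were such multiples. In dpy, a giant protein of the apical matrix with repeated domains, 6 of 6 coding introns were multiples of 306 bases, as were 8 of all 1360. In prc, 13 of 18 were multiples of 51 bases.

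Introns inside exons often shared an end. Of the 5628, 1643 (29.2%) shared their start with another, at 620 positions, and 1596 (28.4%) shared their end, at 603 positions. The largest groups with a shared start lay in lncRNA:CR42862 (13 introns, 203 reads) and cpx (11 introns, 79 reads, 75 of them in brain). The largest with a shared end lay in mmd, a metalloprotease gene (12 introns of 79 to 480 bases in the 5′ UTR, 84 of 86 reads in brain). CaMKI, a calmodulin-dependent kinase, had 38 introns inside exons, 10 of them ending at base 446631 of chromosome 4, with 449 of 554 reads in brain. DIP1, a double-stranded RNA binding protein, had 45 introns, 33 of them in a 5′ UTR, with 388 of 636 reads in brain. Ih, the channel of the hyperpolarization-activated current, had 38, with 140 of 143 reads in brain.

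Reads over an intron were also set against reads inside it. The exon tables divide exons into bins. Where a bin lies wholly inside the intron, its reads come from RNA that kept the intron or from another gene that overlaps there. Introns with a gene on the other strand, such as those of Mf and porin, were not left out. Bin columns could be tied to tissues but not to replicates, so these ratios are tissue totals with no spread and no test. Of the introns with at least 50 reads that the newer annotation lacks, 67 had such bins with at least 20 reads in every tissue. The median number of reads over the intron per 1000 reads inside it was 98.3 in IFM, with 37.0 in brain and 20.5 in leg, and the ratio was highest in IFM for 53, in brain for 10 and in leg for 4. All unannotated events together had 19.4 reads per 1000 exon reads in IFM, with 10.1 in brain and 7.26 in leg, and the minimum of 50 reads favours the deepest libraries, so that events in general had the same order of tissues, and its part in the ratios was not tested. More reads over the intron than inside it were counted for 13 introns in IFM, with 1 in brain and 2 in leg, and among the 50 introns with at least 100 inside reads in each tissue for 5, 0 and 1. Reads over the intron are summed over both read ends in these counts.

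**Figure D4:**
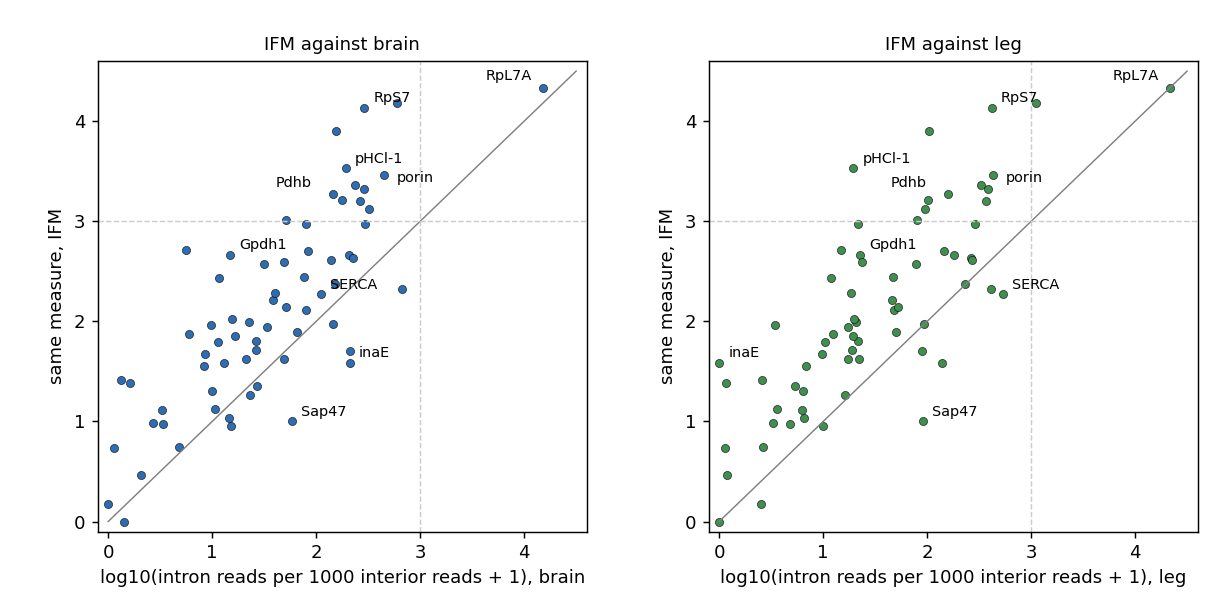
Reads over the intron per 1000 reads of the bins inside it, as log10 after adding 1, for 67 introns in IFM (vertical axes) against brain (left) and leg (right). Points are introns, the diagonal marks equal ratios and dashed lines mark 1000; 53 introns have their highest ratio in IFM, while Sap47 lies below the diagonal in both panels.

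Single introns departed from that order. The SERCA 3′ UTR intron had 540 reads per 1000 inside reads in leg, 186 in IFM and 110 in brain. The Sap47 40-base intron had 90.8 in leg, 57.2 in brain and 9.07 in IFM, and the inaE intron had 211 in brain, 37.7 in IFM and 0 in leg. RpL7A had 21652 in IFM, with 15222 in brain and 21586 in leg. The higher ratio in IFM was seen for Mf (1604 for the 91-base intron, against 260 in brain and 370 in leg), Pdhb (1871, 145 and 159), porin (2916, 451 and 432), RpS7 (13690, 289 and 415) and pHCl-1 (3398, 191 and 18.5). For B52 the ratio was 30308 in IFM, with 3571 in brain and 3857 in leg, and it rests on 13, 56 and 21 reads inside the intron. A bin counts reads over its whole length and an intron only those across its junction, so the ratio is no share of spliced RNA.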

How the data were processed

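Paired-end RNA-seq reads of poly(A) RNA from 6 libraries were analysed by the authors with fortuna, which pseudoaligns each read end to fragments guessed from the annotation. The authors deposited 12 such tables, in which each line holds the raw read count of 1 event. The authors also deposited 3 exon tables of raw counts per exon bin. The 3 deposited gene tables hold the authors' own comparisons and were not used. The submitters' processing notes name BDGP6, STAR 2.7.3a, SAMtools 1.1, featureCounts of Subread 2.0.0 and DESeq2 1.32.0. Versions of fortuna and the counting strand are not given in the sources used here.

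Events were summed over read ends. Start is the last base before the intron and end the first base after it (98.96% and 98.94% of exon-skipping events matched annotated exon ends in this way), so length is end minus start minus 1. Place came from the transcripts of Ensembl BDGP6.54. A minimum of 50 reads in all was set for the test, which was the quasi-likelihood F test of edgeR 4.0.16 (R 4.3.3) after TMM scaling, with tissue as factor and Benjamini-Hochberg adjusted p below 0.05. For the offset, gene CPM plus 0.1 entered the fit. Gene CPM is the sum of exon bins. In each exon table, 78 lines were not used. The edgeR fit was run on simulated counts in which events of at least 150 reads were changed in IFM, 50 at each fold. Against leg it called 0 of 50 at 2-fold, 9 at 4-fold, 36 at 8-fold and 47 at 16-fold. Of 16395 unchanged events it called 10. An intron that did not pass is therefore not shown to be equal between tissues. DESeq2 1.42.0 was an alternative; Other steps used numpy 2.4.6, pandas 2.3.3, matplotlib 3.10.9 and scipy 1.17.1 under Python 3.11.15. The planned ratio per library could not be had, and tissue totals were used. No genome sequence was used here, so sequences and splice-site motifs are not reported.

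Named introns are the 10 most read of each tissue, the 5 largest changes per direction among called introns with at least 150 reads and no overlap, the 10 with most reads per 1000 bin reads, the 5 most read coding ones of a length that is a multiple of 3 (the rule also asked for splice-site motifs, which could not be read), the 3 most read of each of the 9 gene lists, and the 5 genes with most introns. The text gives most of these; the others are counted. Members and lists were chosen with earlier results of these data known.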

Additional observations from a re-analysis of the deposited data

How the results depend on the processing

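Calls changed most with the filter, the read end and the gene offset. With at least 150 reads, 69 introns were called between IFM and leg, 90 between IFM and brain and 45 between brain and leg, as fewer were tested. The first read end alone gave 70, 91 and 39, the second 71, 102 and 54, and the offset 60, 60 and 14. Leaving out 1 library gave 74 to 117, 119 to 172 and 53 to 85. DESeq2 gave 111, 158 and 92, no filter 139, 240 and 123 (2.47%, 4.26% and 2.19%, against 5.70%, 10.7% and 4.90% of all events), and, chosen after seeing the data, 1 entry per interval 119, 173 and 95. Without the intervals that the newer annotation lists as introns, also chosen after seeing the data, 101, 150 and 86 were called. A fit with the replicate block gave 111, 169 and 92. Equal replicate numbers are no pairs: over the 266 introns, differences between replicates correlated at 0.31 (IFM with brain), -0.05 (IFM with leg) and -0.07 (brain with leg), and at 0.01, 0.01 and 0.02 over all events. At 750 reads in a tissue total, 27 introns remained in IFM, with 6 in brain and 7 in leg, scaled thresholds gave 44 (IFM), 61 (brain) and 47 (leg), and leaving out a library gave 53 to 76 in IFM, 29 to 40 in brain and 27 in leg. The share of lengths that are multiples of 3 in coding sequence was 62.9% with at least 10 reads, 50% with at least 50, 100% with at least 150 and 55.8% with 1 intron per gene. Introns inside exons made up 1.5% of events with at least 10 reads in IFM, with 2.00% in brain and 2.04% in leg. By reads the shares were 3.65% in IFM and 2.43% in brain, and 2.27% (IFM), 2.09% (brain) and 2.47% (leg) without the intervals that the newer annotation lists as introns. For 47 named introns with exon bins, the median ratio per 1000 bin reads was 41.7 (IFM), 34.6 (brain) and 21.0 (leg), and 27.2, 11.7 and 6.33 with the first read end.

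These log2 fold changes turned sign, and the cause was not tested. With the offset they were -1.90 for asRNA:CR45350 (IFM against leg), -1.28 for the 42-base intron of CG42586, -0.36 for SERCA, 0.27 for GluClalpha and -0.48 for RpL7A (IFM against brain), and 0.34 and 0.38 for the introns of prc, 2.59 for the 91-base intron of Mf and -0.46 for Sap47 (brain against leg). With the first read end, the 99-base intron of CG42586 gave 2.47 between IFM and leg. With the second, RpL7A gave -3.94 between IFM and leg and -3.32 between IFM and brain, and with total reads -0.30 between IFM and brain. Rnf11 ranged from -12.19 without IFM replicate 1 to 12.80 without brain replicate 1 between IFM and brain. Not run, for want of a genome sequence, were the splice-site motifs and the frame among introns with such motifs, and the ratio could not be made for each library. Brain and leg libraries hold fewer event reads than those of IFM, and the part of depth in the calls was not tested.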

Other observations

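Reads of 1 end only were common among the introns of the newer annotation. Of 75 cases with at least 20 reads of 1 end in a library, 26 (34.7%) had no read of the other end, against 49 of 487 (10.1%) among the other introns inside exons. Introns with at least 20 reads in 1 replicate and none in the other numbered 7 of 188 in IFM, 11 of 179 in brain and 3 of 103 in leg, of which 6, 7 and 2 are introns of the newer annotation.

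Some intervals had a second type. Of the 5628, 1168 were also listed under another event type, and 941 of these had equal counts in all 6 libraries under both types.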
